A study of Mus musculus with 4 samples.

Results

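The genes described here encode the semaphorins, their plexin and neuropilin receptors, the netrins Ntn1 and Ntn4, and the netrin receptors Dcc and Unc5a to Unc5d. They were taken by name as a list of 38 genes, all of which matched the gene table of 21887 protein-coding genes. The chromatin was that of genital tubercles at E14.5 (embryonic day), dissected from CD1 mice of wildtype genotype with no treatment or engineered allele stated, and was immunoprecipitated in 2 replicates with a rabbit monoclonal antibody to ISL1. The genital tubercle is the outgrowth from which the penis or clitoris forms, and ISL1 belongs to the LIM-homeodomain family of DNA-binding proteins. The 2 input DNA samples were not analysed here. The labels do not say whether the replicates came from separate litters or pools of embryos, and a list of bound sites does not measure expression, so the tissue label could not be checked against marker genes.

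Semaphorins and netrins are guidance cues that steer growing axons, migrating cells and sprouting vessels. Class 3 semaphorins are secreted and mostly bind a neuropilin, which pairs with a plexin that carries the signal into the cell, while the membrane-bound classes mostly bind plexins directly. The netrin Ntn1 can attract through Dcc and repel through Unc5 receptors.

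Each replicate had its own list of peaks, the stretches of DNA that the authors' peak calling marked as enriched, with 8860 peaks in replicate 1 and 10162 in replicate 2. The score of a peak is the authors' own whole number, with a lowest value of 20 in both lists, and it ranks peaks within a list. A region is called shared here where a peak of each replicate overlapped by at least 1 bp, and 6834 regions were shared in all. A region or peak was placed at a gene when its midpoint lay inside the gene or within 100 kb of either end. Read depth is unknown, and a gene without a region is not shown to be unbound, since signal under the authors' threshold is not listed. All positions are in mm10.

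Isl1 regions lay at 22 of the 38 genes (57.9%), and the other 16 had none. Among all protein-coding genes 38.1% had at least 1 shared region by the same rule. Of the 38 genes, 11 (28.9%) held a region inside the gene, against 8.32% of all genes, and 13 (34.2%) had 1 inside or within 10 kb, against 14.3%. At least 3 regions were found at 6 genes, Unc5c, Sema3c, Sema3d, Sema3a, Sema5a and Sema6b, where 6.38% of all genes reached that number. Apart from Sema6b these genes are 155 to 479 kb long, and the share among genes of like length was not computed for that number. Exactly 2 regions lay at 7 genes and exactly 1 at 9. No significance test was made for these shares, because the genes were listed by name with results of these data known.

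**Figure D1:**
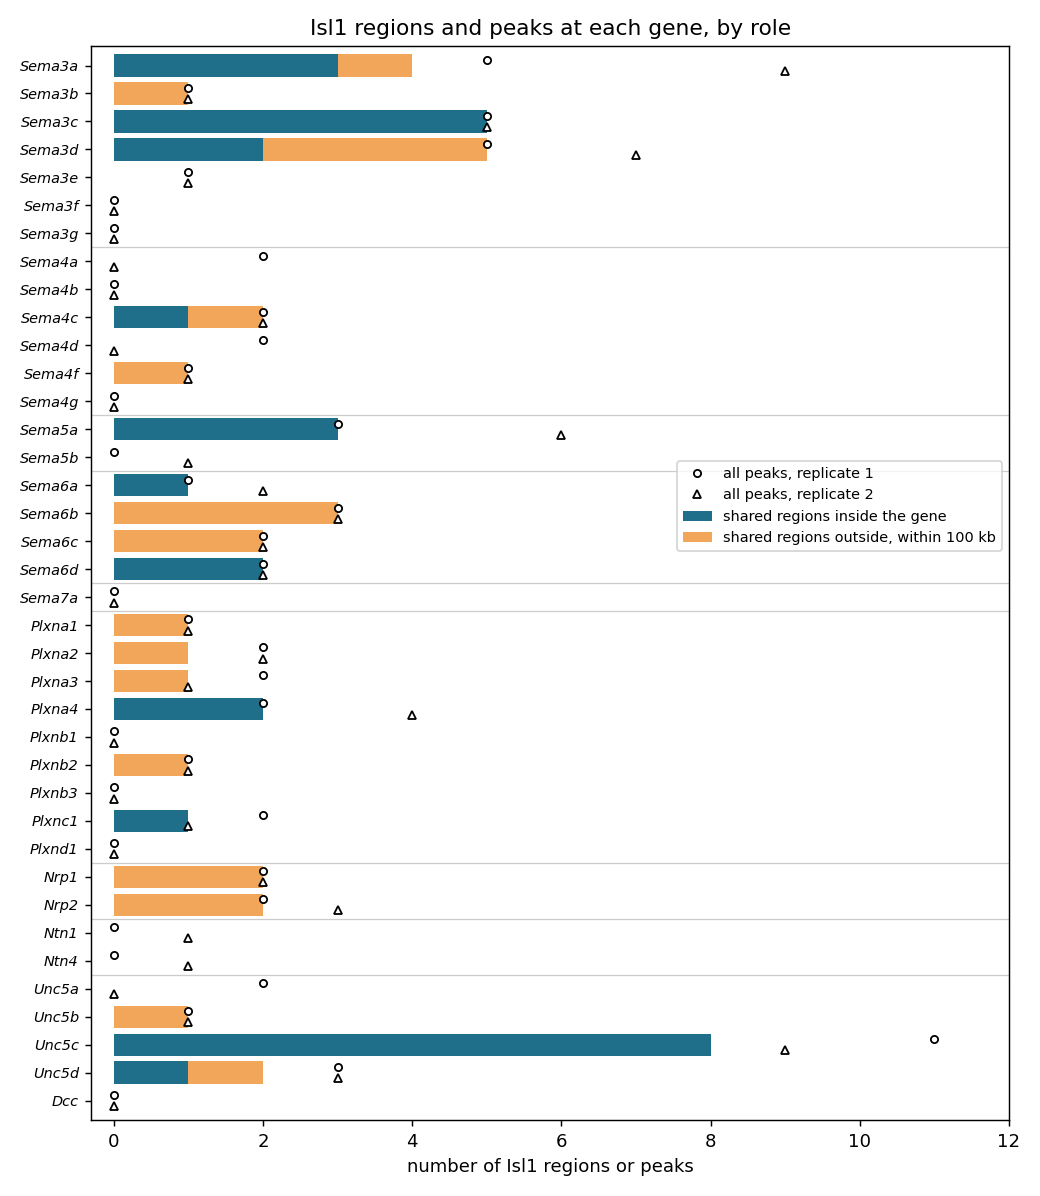
Shared Isl1 regions at each of the 38 genes (bars, split into those inside the gene and those outside within 100 kb) and all peaks of replicate 1 (circles) and replicate 2 (triangles), with lines between the roles. Unc5c has the longest bar with 8 regions, all inside the gene, and 9 genes have no peak in either list.

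Many of these genes are long, and long genes offer more room for a region. Of the 9 genes of 200 kb or longer, 7 had a region in the gene or within 100 kb, where 67.9% of all genes of that length did. In the class from 100 kb to under 200 kb, 6 of 10 had one, against 52.2%. The shorter classes had 1 of 2 (50 kb to under 100 kb, against 43% of all genes), 3 of 9 (20 kb to under 50 kb, against 37.8%) and 5 of 8 (under 20 kb, against 33%). Against genes of like length the margin was thus small in the 4 classes from 20 kb up, and negative for genes of 20 kb to under 50 kb. It was wide only under 20 kb, a class of 8 genes, where the 5 with a region were Sema3b, Sema4c, Sema6b, Sema6c and Plxna3. Of these, Sema3b, Sema6c and Plxna3 counted only through regions that were nearest to other genes. Those were Hyal2 for Sema3b, Vps72 and Pip5k1a for Sema6c, and Flna for Plxna3. Regions inside the gene were found in 10 of the 19 genes of 100 kb or longer, against 39.4% of all such genes, and in 1 of the 19 shorter genes, against 4.43%.

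**Figure D2:**
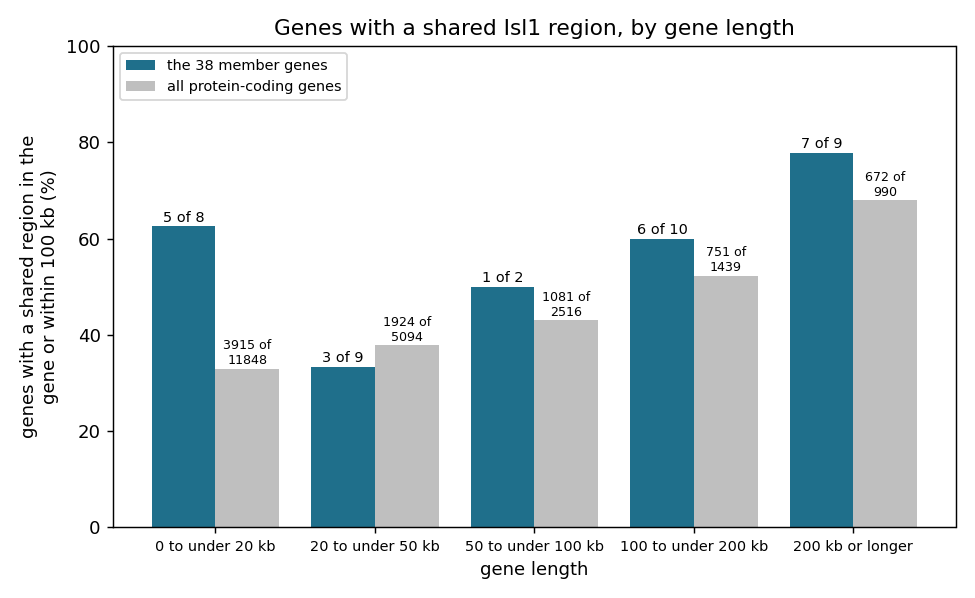
Share of genes with a shared Isl1 region in the gene or within 100 kb (vertical axis, percent) by gene length, for the 38 genes (blue) and all protein-coding genes (grey), with counts above the bars. The share among all genes climbs from 33% in the shortest class to 67.9% in the longest.

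Together the 38 genes had 51 distinct shared regions, 29 inside genes and 22 outside, and no region was within reach of more than 1 of the genes. The inside regions came to 4.56 per Mb of gene, against 2.83 per Mb over all protein-coding genes. Unc5c held 8 of them, and without it the density was 3.5 per Mb. With the flanks of 100 kb included, the density was 3.69 per Mb against 2.65 per Mb over all genes and their flanks.

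Start sites of 30 of the 38 genes are listed in the promoter table, and 3 genes had a shared region within 1 kb of a start (Sema6b, Unc5b and Sema4c), where 4.93% of all genes with a listed start did. Sema6b encodes a membrane-bound semaphorin of class 6 and Unc5b a netrin receptor known from blood vessels. The 250 bases before these 2 starts are shown 5′ to 3′ in the gene's direction from RefSeq (GRCm38.p6, minus strand in both), with the bases under the shared region in capitals. The stretches hold the whole Unc5b region and 177 of the 188 bases of the Sema6b region, which runs on past the start. The Sema6b stretch is chr17:56140344-56140593 and the Unc5b stretch chr10:60831582-60831831.

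Sema6b: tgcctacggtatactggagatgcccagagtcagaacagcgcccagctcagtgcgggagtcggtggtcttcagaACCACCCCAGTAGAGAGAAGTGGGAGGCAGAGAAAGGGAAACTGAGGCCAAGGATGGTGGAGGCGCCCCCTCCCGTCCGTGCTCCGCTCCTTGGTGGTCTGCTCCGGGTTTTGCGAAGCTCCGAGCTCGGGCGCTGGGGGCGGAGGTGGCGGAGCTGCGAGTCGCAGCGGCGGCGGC

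Unc5b: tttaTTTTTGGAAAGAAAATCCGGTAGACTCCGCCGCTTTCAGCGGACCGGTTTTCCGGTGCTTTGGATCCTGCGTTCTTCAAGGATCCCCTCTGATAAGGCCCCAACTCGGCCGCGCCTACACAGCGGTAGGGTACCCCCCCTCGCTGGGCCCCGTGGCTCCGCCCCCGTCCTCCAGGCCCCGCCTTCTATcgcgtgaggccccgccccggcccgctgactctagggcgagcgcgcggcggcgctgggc

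In Sema6b the capitals run from 177 bases before the start to 1 base before it, and in Unc5b from 246 to 59 bases before it. Both stretches were rich in G and C, 66.0% in Sema6b and 66.8% in Unc5b, where the median over all promoters was 55.6% and over promoters with a shared region 60.0%. The Sp and Klf type motif GGGCGG was searched on both strands and matched once in the Sema6b stretch, 40 to 35 bases before the start and under the region. In Unc5b it matched at 2 places, of which the one 89 to 84 bases before the start lay under the region. This motif was in 42.6% of all promoters and in 53.9% of the 799 promoters whose upstream 250 bases overlapped a shared region.

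Homeodomain type letters were not in these 2 windows. The sequences under the other shared regions, that of Sema4c among them, were not read, so the motif results do not extend to them. TAATTA had no match in either stretch, while it was in 4.31% of all promoters and in 1.25% of those with a region. CTAATG, a motif of the Isl1 type, had no match either, and was in 5.69% of all promoters and 4.01% of those with a region. CTAATNG, which has a further base of any kind before the G, also had no match, and was in 4.5% and 4.26%. The E-box CANNTG was in 62.8% of all promoters and 53.1% of those with a region, and in neither stretch here. The Ets motif CCGGAAG (8.98% and 13.8%), the NF-Y motif CCAAT (35.4% and 30.0%) and the AP-1 motif TGANTCA (6.13% and 4.01%) had no match in the 2 stretches. Each motif was searched on both strands and a match is a run of letters, not a shown binding site.

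The counts by role below stand beside 38.1% of all protein-coding genes with a region. At 100 kb or longer that share was 58.6%, and among shorter genes 35.6%. Each role holds at most 9 genes, and differences between roles were not tested. Class 3 semaphorins had a shared region at 4 of 7 genes, with 15 distinct regions. Of the 7 genes, 4 lie on chromosome 5 (Sema3d, Sema3a, Sema3e and Sema3c). With their flanks they span a stretch of 5.55 Mb, from 12283161 to 17830268. Sema3e ends at 14256689 and Sema3c starts at 17574816, so a wide part of the stretch lies beyond the flanks of both. That stretch held 23 shared regions, and 14 of them were at Sema3d, Sema3a or Sema3c. The share of the stretch taken up by these genes and their flanks was not computed, so the 14 have no background.

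Sema3c, a secreted semaphorin known from outflow tract and neural crest development, had 5 regions, all inside the gene (chromosome 5, 17574816 to 17730268, 155 kb long). The first, 12.1 kb after the start, ran from 17586764 to 17587078 with scores of 71 in replicate 1 and 51 in replicate 2. The next lay 31.8 kb after the start (17606468 to 17606741, scores 89 and 100). Then came a close pair whose midpoints were 620 bp apart. Its first region ran from 17689041 to 17689289 (scores 76 and 148) and its second from 17689675 to 17689891 (scores 73 and 173). The last lay 141 kb after the start (17715500 to 17715681, scores 59 and 66). All 5 were of low to middle rank: their lower scores were matched or undercut by 18.5% to 48.1% of all shared regions, and none reached 100 in both replicates. Each list had exactly 5 peaks here, so no peak of Sema3c was in 1 list alone.

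Sema3d, another secreted semaphorin, had 5 regions on chromosome 5, of which 2 lay inside the gene (12383161 to 12588953). The strongest was inside, 191 kb after the start, from 12574056 to 12574666 with scores of 365 and 355, and 91.8% of all shared regions had a lower score at or below its own. The other inside region (12529879 to 12530232) had scores of 69 and 118. Outside, a region 2.03 kb beyond the gene's end (12590797 to 12591141) had scores of 39 and 100. Farther regions lay 77.0 kb beyond the end (12665844 to 12666022, scores 66 and 146) and 72.9 kb before the start (12310078 to 12310362, scores 104 and 60). Sema3d thus had regions on both sides, with the strong one near its end rather than its start. With at least 50% reciprocal overlap 3 of the 5 were left. Replicate 2 listed 7 peaks, including an unshared one 1.62 kb before the gene (score 40).

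Sema3a, a repellent for axons that bind it through Nrp1, had 4 regions, 3 of them inside its 479 kb (chromosome 5, 13124822 to 13603485). The strongest ran from 13347033 to 13347486 with scores of 238 and 327, which puts its lower score at or above that of 84.7% of all shared regions. It lay 49.5 kb before the start site listed for the gene, inside a longer gene model that begins farther upstream. The other inside regions had scores of 90 and 67 (13147611 to 13147856) and of 46 and 137 (13490559 to 13490804). The outside region lay 33.0 kb beyond the end (13636343 to 13636636, scores 82 and 75). Replicate 2 alone placed 9 peaks at Sema3a and replicate 1 placed 5, so the count by replicate 2 was more than 1.5 times that of the shared regions.

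The remaining class 3 genes had little. Sema3b had 1 region, 28.7 kb away, with the highest scores of all 51 (1105 and 941, chromosome 9, 107568740 to 107569194), but it lay inside Hyal2, a hyaluronidase gene, 1092 bp from an end of that gene. Sema3f, on the same chromosome, was 113 kb from this region and had no peak within the limit. Sema3e, the ligand of plexin D1, had 1 unshared peak in each list, both inside the gene (score 39 in replicate 1 and 74 in replicate 2), and its nearest shared region was 389 kb away. Sema3g had no peak in either list and its nearest shared region at 432 kb.

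**Figure D3:**
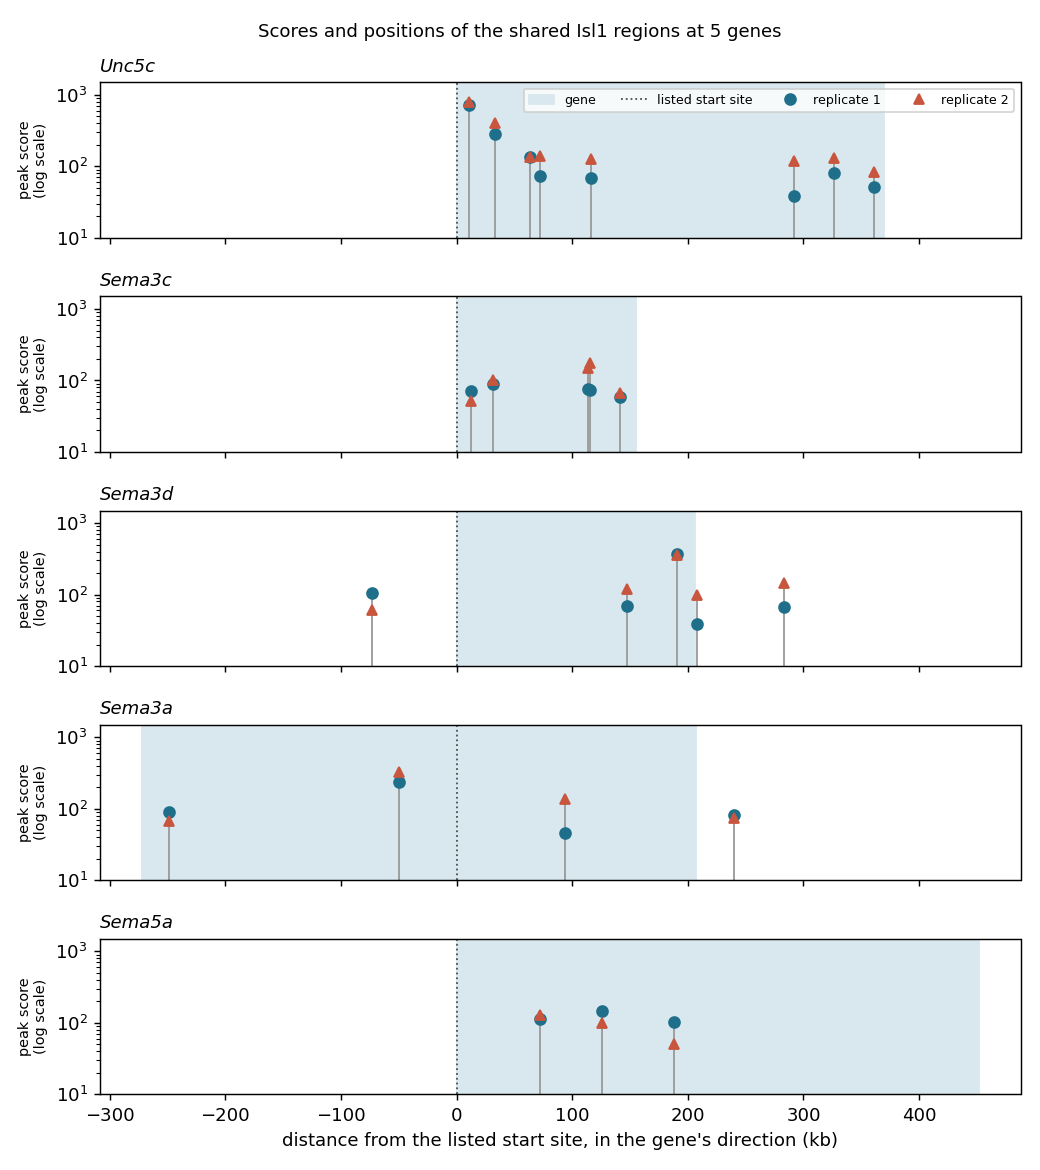
Scores of the shared Isl1 regions (vertical axis, log scale) in replicate 1 (circles) and replicate 2 (triangles) by distance from the listed start site in kb, for Unc5c, Sema3c, Sema3d, Sema3a and Sema5a, with the gene shaded. In Unc5c the highest scores, 720 and 787, lie 10.4 kb after the start, whereas the strongest Sema3d region (365 and 355) lies 191 kb after it.

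Class 4 semaphorins, membrane-bound ligands that mostly act through B plexins, had a region at 2 of 6 genes, against 38.1% of all genes. Sema4c had a weak region inside the gene, 151 bp after a listed start (chromosome 1, 36557269 to 36557512), with scores of 26 and 49, and only 2.5% of all shared regions had a lower score at or below its own. Its other region was 77.2 kb away, 150 bp from an end of Cnnm4 (scores 138 and 118). The single region of Sema4f, 47.9 kb away (chromosome 6, 82987368 to 82987855), was strong, with scores of 565 and 858, and lay inside the neighbouring gene M1ap. Sema4a and Sema4d had 2 peaks each in replicate 1 and none in replicate 2, with scores of 46 and 26 at Sema4a and of 93 and 32 at Sema4d. With replicate 1 alone the class would therefore count 4 genes. Sema4b and Sema4g had no peak in either list.

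Class 5 was represented by Sema5a, which carries thrombospondin repeats and had 3 regions, all inside its 452 kb (chromosome 15, 32244813 to 32696341). They lay 72.2 kb, 126 kb and 188 kb after the start. The first ran from 32316888 to 32317145 with scores of 113 and 127, and the second from 32371025 to 32371263 with scores of 147 and 100. The third ran from 32432811 to 32433065, with scores of 101 and 51. No region of Sema5a stood far above the others. Replicate 2 alone listed 6 peaks, against 3 in replicate 1. Sema5b had 1 peak in replicate 2 only, inside the gene (score 91).

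Class 6 semaphorins, membrane-bound ligands of A plexins, had a region at each of the 4 genes, where 38.1% of all genes had one. Their 8 regions had a median lower score of 338, against 91 over all shared regions and 89 over the 51. Of these 8 regions, 3 lay at the ends of genes other than semaphorins. Sema6b had 3 regions and none inside the gene (chromosome 17, 56123085 to 56140343). The region of the promoter shown above, 87 bp before the start, had scores of 697 and 534 (56140333 to 56140520). A second lay 1.42 kb farther upstream, from 56141757 to 56141943, with scores of 763 and 427. These 2 make the start of Sema6b the most strongly marked of the listed starts of the 38 genes in both lists. The third, 78.7 kb upstream, was 126 bp from an end of Dpp9 (scores 294 and 249). All 3 kept scores of at least 100 in both replicates, and each list had exactly 3 peaks.

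Sema6a had 1 shared region, inside the gene and 2.22 kb from its end with the higher coordinate (chromosome 18, 47368878 to 47369071), with scores of 467 and 522. Sema6d, 578 kb long, held 2 regions (chromosome 2), with scores of 138 and 175 for the one from 124299226 to 124299462 and of 66 and 126 for the one from 124382391 to 124382832. Neither was within 200 kb of the ends of Sema6d. Both regions of Sema6c were outside it and at other genes: the one 49.4 kb away lay 56 bp from an end of Vps72 (chromosome 3, 95110877 to 95111079, scores 451 and 486), and the one 53.4 kb away lay 106 bp from an end of Pip5k1a (scores 97 and 98). Sema7a, a membrane-anchored semaphorin that binds plexin C1 and integrins, had no peak in either list.

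Plexins, the signal-carrying semaphorin receptors, had a region at 6 of 9 genes, against 38.1% of all genes. Inside the gene a region lay at Plxna4 and Plxnc1 only. Plxna4 held 2, with scores of 69 and 117 (chromosome 6, 32251787 to 32251983) and of 39 and 37 (32368724 to 32368910). The region of Plxnc1, the receptor of Sema7a, had scores of 249 and 163 (chromosome 10, 94824292 to 94824572). Replicate 2 listed 4 peaks at Plxna4 and replicate 1 listed 2 at Plxnc1.

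At the other 4 plexin genes the region was far out. Plxna2 had a region 98.3 kb before the gene (chromosome 1, 194521259 to 194521573, scores 282 and 263), just inside the limit of 100 kb, and Plxna1 had one 91.9 kb away (scores 39 and 82). The region of Plxna3, 81.8 kb away, lay inside Flna, the filamin gene (scores 166 and 127). That of Plxnb2, 79.6 kb away, lay 147 bp from an end of Trabd (scores 634 and 385). Within 50 kb, 2 plexin genes had a region. Single lists added a replicate 1 peak 83 bp before the Plxna3 start (score 61) and, inside Plxna2, 1 peak in each list that did not overlap (scores 119 and 83). Plxnb1, Plxnb3 and Plxnd1, the last a receptor of vessel endothelium, had no peak in either list.

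Both neuropilin genes had 2 regions each, all upstream and none inside. Nrp1, the co-receptor of Sema3a that also binds Vegfa, had a strong region 29.5 kb before the gene (chromosome 8, 128328927 to 128329290) with scores of 548 and 583, and 96.2% of all shared regions had a lower score at or below it. Its other region lay 95.4 kb before the gene (128263051 to 128263266, scores 69 and 137). Nrp2 had regions 58.0 kb (chromosome 1, 62645163 to 62645437, scores 260 and 101) and 71.2 kb before the gene (62631988 to 62632285, scores 31 and 247). Replicate 1 ranked the nearer region higher and replicate 2 the farther one. For both Nrp2 regions the nearest gene was Pard3b, and the farther one lay inside it.

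Netrin receptors held the largest group of regions in a single gene of the list. Unc5c, which mediates repulsion by netrin, had 8 regions, all inside its 369 kb (chromosome 3, 141465564 to 141834924). Of all protein-coding genes of any length, 23 held as many or more regions inside, Unc5c included. The strongest, 10.4 kb after the start, ran from 141475684 to 141476419 with scores of 720 and 787, and 98.3% of all shared regions had a lower score at or below its own. The next lay 33.1 kb after the start (141498475 to 141499069, scores 284 and 410). Scores were lower farther into the gene.

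The third region of Unc5c, 63.4 kb after the start (141528853 to 141529166), had scores of 137 and 135. The fourth and the fifth, at 72.5 kb (141537980 to 141538250) and 116 kb (141581154 to 141581616), had scores of 73 and 139 and of 69 and 127. A gap of 176 kb without a shared region followed, the widest between neighbouring regions of the gene. Beyond it lay regions at 292 kb (141757154 to 141757428, scores 39 and 118), 326 kb (141791294 to 141791605, scores 82 and 131) and 361 kb (141826553 to 141826720, scores 52 and 83). Of the 8 regions, 3 had scores of at least 100 in both replicates, and these were the 3 nearest to the start. Replicate 1 listed 11 peaks at Unc5c and replicate 2 listed 9.

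Unc5d, 573 kb long, had a wide and strong region inside the gene (chromosome 8, 29122352 to 29123145, 794 bp, scores 371 and 608), the widest of the 51. Its other region lay 12.1 kb outside (28634485 to 28634686, scores 46 and 67). At Unc5b the single region was that of the promoter shown above, 159 bp before the start (60831640 to 60831827), with scores of 242 and 186. Unc5a had 2 peaks in replicate 1, 250 and 61 bp before a listed start (scores 110 and 69), and none in replicate 2, so Unc5a had no shared region. Dcc, the attractive netrin receptor and with 1098 kb the longest gene of the list, had no peak in either list, and its nearest shared region was 543 kb away.

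The netrin ligands had no shared region. Ntn1 had 1 peak in replicate 2 only, inside the gene (chromosome 11, score 83), and its nearest shared region was 368 kb away. Ntn4 had 1 peak in replicate 2 only, 16.7 kb away (score 67), and its nearest shared region at 205 kb. The netrin receptor genes had 11 shared regions in all, but 8 of these were in Unc5c, and the single lists differed. In replicate 1 alone, 0 of 2 netrin genes and 4 of 5 receptor genes had a peak, and in replicate 2 alone, 2 of 2 and 3 of 5.

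The 51 regions had medians near those of all shared regions but a larger share of high scores. Their median score was 101 in replicate 1 and 135 in replicate 2, against 107 and 127 over all shared regions, and their median width was 255 bp against 251 bp. Regions outside the genes had higher lower scores (median 122.5, from 31 to 941) than those inside (median 73, from 26 to 720). Scores were higher in replicate 2 at 31 of the 51 regions (60.8%), where 58.9% of all shared regions were, and at 21 of the 29 inside regions. A lower score of at least 300 was reached by 11 regions (21.6%), against 10.8% of all shared regions. Of these 11, 4 lay inside a gene of the list and 7 outside, and 3 lay within 1 kb of an end of any gene. Among the 7 outside, those at Sema3b, Sema4f, Sema6c and Plxnb2 had Hyal2, M1ap, Vps72 and Trabd as their nearest genes.

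Other genes lay close to many of the outside regions. Of these 22 regions, 12 had a gene of the list as their nearest gene and 10 had another gene. An end of a protein-coding gene was within 1 kb of 7 of the 51 regions (13.7%), against 13.6% of all shared regions, and at 5 of the 7 the end belonged to a gene outside the list (Cnnm4, Dpp9, Pip5k1a, Vps72 and Trabd). None of the 29 inside regions was within 1 kb of a gene end.

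**Figure D4:**
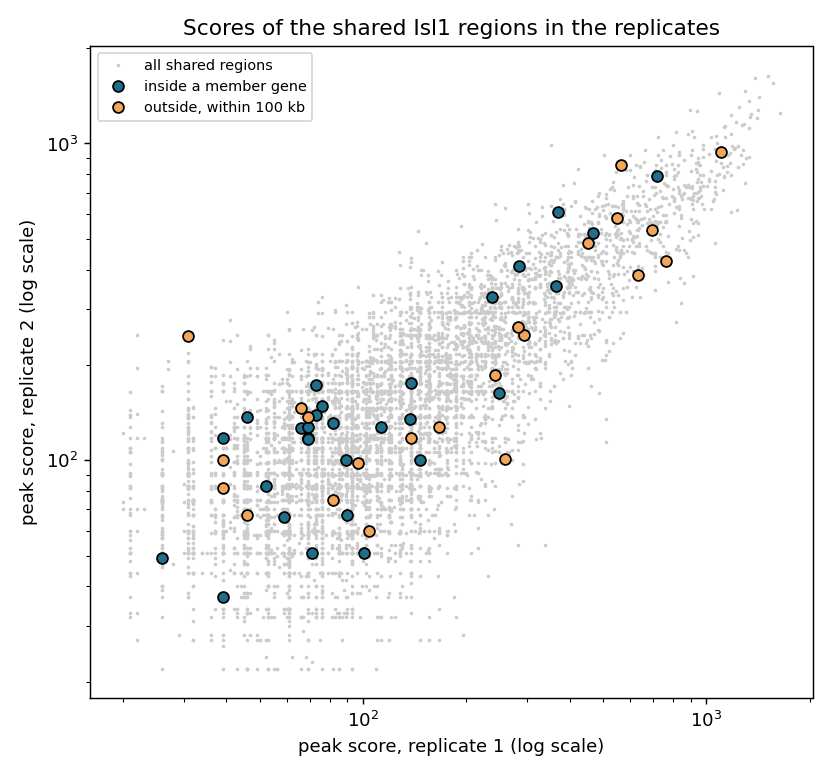
Peak score in replicate 1 (horizontal, log scale) against replicate 2 (vertical, log scale) for all 6834 shared regions (grey) and the 51 regions at the 38 genes, inside them (blue) or outside within 100 kb (orange). The orange point far above the others at its replicate 1 score is the farther Nrp2 region (31 and 247), and the top point is the region inside Hyal2 (1105 and 941).

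The replicates shared most of their peaks at these genes. In replicate 1, 52 of 66 peaks overlapped a replicate 2 peak (78.8%, Wilson 95% interval 67.5 to 86.9%), against 78.5% over the whole list. In replicate 2, 51 of 72 did (70.8%, 59.5 to 80.1%), against 68.3%. These intervals cover counting error only. Peaks in 1 list alone were weaker by median: the 14 of replicate 1 had a median score of 50.5 and at most 119, and the 21 of replicate 2 a median of 67 and at most 100. The overlapping peaks had medians of 101.5 in replicate 1 and 135 in replicate 2. Their lowest scores were 26 and 37, so the ranges overlapped. Each list by itself had a peak at 26 of the 38 genes, where 44.5% of all genes had a replicate 1 peak and 45.5% a replicate 2 peak. Genes with peaks but no shared region numbered 7 (Sema3e, Sema4a, Sema4d, Sema5b, Ntn1, Ntn4 and Unc5a).

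Further genes of semaphorin and netrin signalling, a list of 55 that held other netrins, coreceptors and intracellular effectors, had a region at 29 (52.7%), against 38.1% of all genes, and inside the gene at 10 (18.2%), against 8.32%. This list too is rich in long genes. Of its 23 genes of 100 kb or longer, 12 (52.2%) had a region, against 58.6% of all genes of that length, and 8 (34.8%) held one inside, against 39.4%. Of its 32 shorter genes, 17 (53.1%) had a region, against 35.6%, and 2 (6.25%) held one inside, against 4.43%. Dpysl3, a collapsin response mediator that relays semaphorin signals to the cytoskeleton, had most, with 5 regions. The strongest was inside the gene (chromosome 18, 43409574 to 43410334, scores 638 and 541). Ptk2, the focal adhesion kinase, held 3 regions inside it, the strongest with scores of 92 and 146. Limk1, a kinase that acts on cofilin, had 2, the stronger 84.2 kb away (scores 348 and 302). Mical1 and Mical2, oxidoreductases that take actin filaments apart, also had 2 each, the stronger 3.20 kb from Mical1 (scores 260 and 99) and 35.5 kb from Mical2 (scores 98 and 121). Ntng1 and Plxdc2 likewise had 2 regions, both inside the gene in each case. Apart from Dpysl3 and Ptk2 no gene of this list reached 3 regions, and 26 had none. At least 3 regions were thus found at 2 of the 55 genes, against 6.38% of all genes.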

How the data were processed

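ChIP-seq of ISL1 was analysed from 2 peak lists, 1 per replicate, in mm10. The submitters' processing notes name Trimmomatic 0.35, Bowtie2 2.2.6, MACS2 2.1.0.20150731 and bedtools, with no order. The sources used here give neither settings nor the threshold nor the use of the input. The deposited score, a whole number per peak from the authors, has no stated formula. It was used to describe and rank peaks and to set score minimums. Scores of the 2 lists are compared as given, and whether they are on one scale is unknown.

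Overlapping peaks of the replicates (at least 1 bp) were joined into shared regions, and the midpoint of the longest overlap set each distance. Where several peaks of a list were joined, the highest score stands for it. Genes came from a RefSeq table (GRCm38.p6), without exons, so exon, intron and UTR classes are not given. Promoter sequences and start sites came from RefSeq and do not cover every gene. Shares carry Wilson 95% intervals where printed. Scripts ran in Python 3.11.15 with numpy 2.4.6 and scipy 1.17.1, and overlap and window counts were checked on simulated peaks.

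The genes and lists were chosen with earlier results of these data known, so counts are set beside all protein-coding genes and no test was made. Genes with at least 3 regions are given region by region, those with 1 or 2 in brief, those with none by name, and of the signalling list the 5 with most regions, ties in alphabetical order, with Ntng1 and Plxdc2 added after their values were seen. Alternatives changed the overlap, the score minimum, the window, the assignment and the list.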

Additional observations from a re-analysis of the deposited data

How the results depend on the processing

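Results for all 38 genes, their roles and the signalling list were recomputed under alternatives of list, overlap, score, window and assignment. Of 506 results, 372 stayed within 1.5 times their value (or, for a share, within its interval) and 134 moved, 102 of them counts at single genes. Some of the 372 could not have moved. At the 16 genes without a shared region, stricter overlap, score minimums and narrower windows could only give no region again. Giving each region to its containing or nearest gene kept the limit of 100 kb, so it could add none there either. The same holds for roles made up of such genes alone. For these genes and roles, staying unchanged under those settings says nothing about stability. Each shared region also holds a peak of each list, so counts in a single list could hardly fall below those of shared regions. The number of genes with a region was 26 in either list alone, 22 with 50% reciprocal overlap, 19 with scores of at least 100 and 16 with each region given to its containing or nearest gene. It was 11 inside genes, 13 within 10 kb and 35 within 500 kb. Among all protein-coding genes 8.32% had a region inside and 14.3% inside or within 10 kb. Distinct regions numbered 24 with scores of at least 100, 29 inside genes, 33 within 10 kb and 111 within 500 kb. The signalling list had 13 genes with scores of at least 100, 10 inside genes, 11 within 10 kb, 18 within 50 kb, 52 within 500 kb and 12 by containing or nearest gene. Shares over all protein-coding genes were not computed for the overlap, score, 50 kb, 500 kb and assignment settings. Counts of genes under those settings therefore have no background here and may be ordinary.

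By role, regions inside genes were at 1 class 4 gene, 2 class 6 genes, 2 plexins and 0 neuropilins. Within 10 kb they were at 1 class 4 gene, 2 plexins and 0 neuropilins, and within 50 kb at 2 plexins and 1 neuropilin. Within 500 kb the counts were 7 in class 3, 4 in class 4, 2 in class 5, 1 in class 7 and 2 netrins. By containing or nearest gene, class 4 had 1 gene and the neuropilins 1. In single lists class 4 had 2 to 4 genes, class 5 had 1 to 2 and the netrins 0 to 2. Sema3c had no region and Sema3d and Sema3a 1 each with scores of at least 100. No paired analysis was possible because only ChIP samples had peak lists, and the numbers they share with the input samples pair nothing in the files. Depth is unknown, so weak peaks may be missing unequally from the lists.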

Other observations

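The 16 genes without a region inside the limit of 100 kb had their nearest shared region between 113 kb (Sema3f) and 780 kb (Sema4g) away. The lower score of that region had a median of 103.5 over the 16 genes and ran from 31 at Sema4a to 1242 at Unc5a. It was at least 300 at 3 genes, Unc5a (251 kb, scores 1348 and 1242), Sema4g (780 kb, scores 977 and 990) and Sema3f, whose nearest region is the one inside Hyal2. At Dcc the nearest region was weak (543 kb, scores 39 and 38). Just outside the limit, Sema3d had a further region at 108 kb (chromosome 5, 12696303 to 12696738, scores 69 and 166), while Plxna1, Plxna2 and Nrp1 each counted one between 91.9 kb and 98.3 kb. Plxnd1 had its nearest region at 146 kb (scores 107 and 117).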
